A study of Mus musculus with 8 samples.

Results

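The 10 genes described here encode purinergic receptors and ectonucleotidases: the ATP-gated channels P2rx4 and P2rx7, the nucleotide receptors P2ry1 and P2ry6, the cell-surface enzymes Entpd1, Entpd2 and Nt5e, and the adenosine receptors Adora1, Adora2a and Adora3. They were chosen by symbol, and all 10 have a row among the 17644 genes of the deposited table. Expression was measured by CAGE, a cap analysis in which each tag marks the 5′ end of a capped RNA, in mouse brain tissue within 1.0 mm of a cavity made by aspirating motor cortex. The 1-week group (4 libraries) came from brains removed 1 week after the lesion, and the no-delay group (4 libraries) from brains removed immediately after it. All mice were 11-week-old C57BL/6NCrSlc males and all carried the lesion, so the no-delay group is freshly injured and not intact tissue. Each library is called by its group and the 6-base tag of its column.

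Injured cells release ATP and other nucleotides. P2X receptors are cation channels opened by ATP, P2Y receptors are G protein-coupled receptors for ATP, ADP or UDP, and ectonucleotidases shorten the signal by removing phosphates outside the cell until adenosine is left, which adenosine receptors then sense. In brain, microglia, the resident macrophages, carry P2X and P2Y receptors that steer process movement, phagocytosis and cytokine release, while adenosine A1 receptors mainly dampen transmitter release from neurons.

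Of the 10 genes, 7 were higher at 1 week, none was called lower, 2 were not called, and Adora2a was too low to be tested (limma on log2(CPM + 1), Benjamini-Hochberg adjusted p under 0.05 over all 14718 genes tested, where CPM is the share of a library's tags, scaled to a common total). At an unadjusted p under 0.05, and by edgeR and DESeq2, none was lower either. Over all genes tested, 23.4% were called higher and 13.4% lower. The median log2 fold change was 0.80 for the 9 genes of the set that were tested and 0.06 for all genes tested. Among the 9, Adora3 stood below 1 CPM in every no-delay library and could pass the filter (1 CPM or more in at least 4 libraries) only through its 1-week values, so it had to differ. In 6 of the 10 genes the lowest 1-week value exceeded the highest no-delay value, and in the other 4 the groups overlapped. Of all genes tested, 22.7% had such a gap in this direction and 34.7% in either direction.

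**Figure D1:**
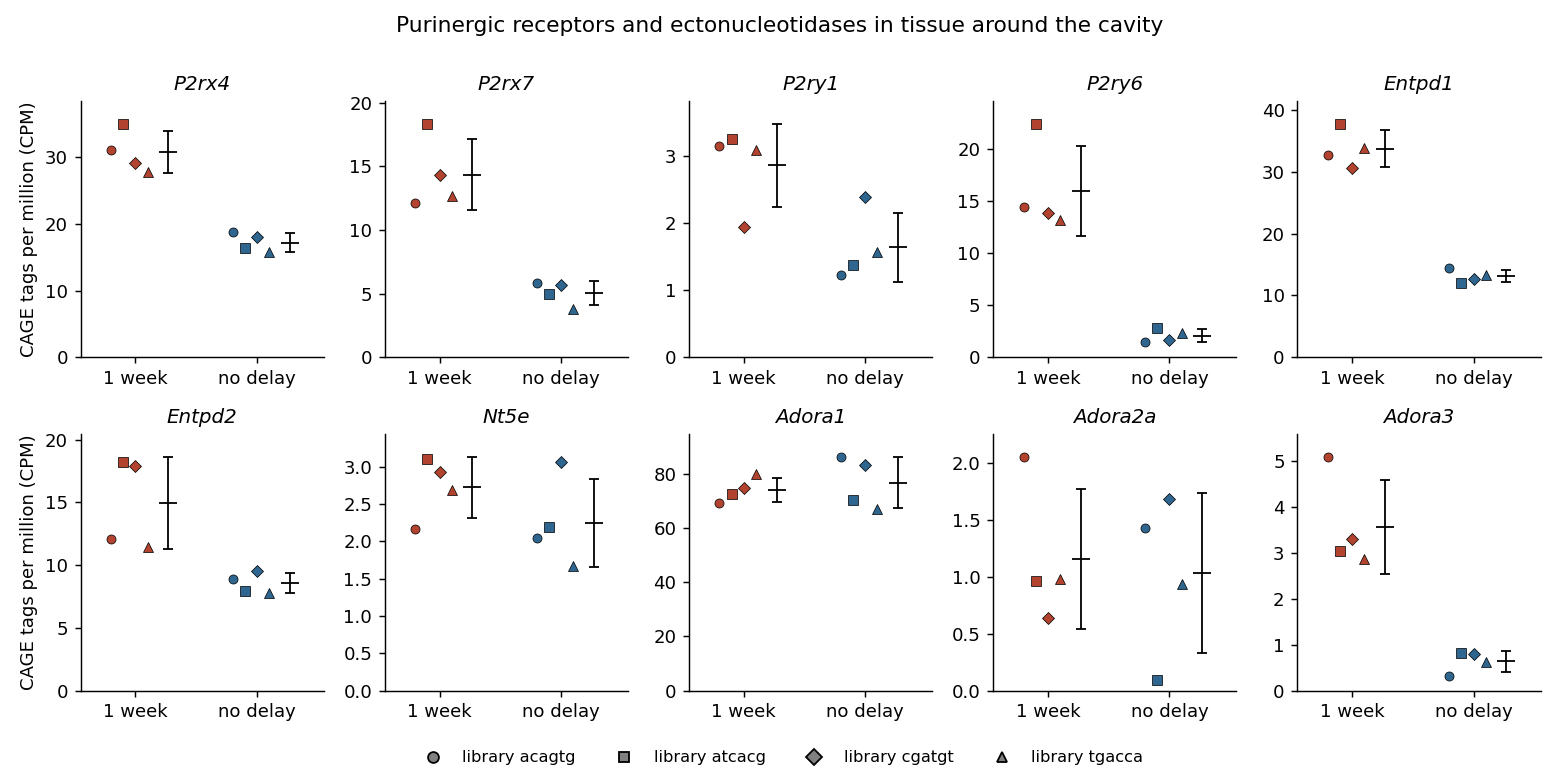
CPM of the 10 genes in each library, 1 week on the left and no delay on the right of each panel, with marker shapes for the 6-base tags and the mean ± SD of 4 libraries beside them; each y axis starts at 0 and has its own scale. P2rx4, P2rx7, P2ry6, Entpd1, Entpd2 and Adora3 show no overlap between the groups, and Adora1 lies between 67.0 and 86.1 CPM in all libraries.

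Because CAGE counts tags at the start of transcripts, the sequence around each gene's start is shown for genes whose level the results turn on, with Adora1 as a gene that was not called. The sequences are RefSeq windows on build GRCm38.p6 of 300 bases, from 250 before to 50 after an annotated start, written 5′ to 3′ on the gene's strand. RefSeq windows were at hand for 8 of the 10 genes (11 windows), and none was at hand for P2ry6 and Adora2a. Capitals mark GAGGAA or its reverse complement TTCCTC, the core of sites for Ets factors such as PU.1, a regulator of microglial genes.
P2rx4, chr5:122707294-122707593, plus strand: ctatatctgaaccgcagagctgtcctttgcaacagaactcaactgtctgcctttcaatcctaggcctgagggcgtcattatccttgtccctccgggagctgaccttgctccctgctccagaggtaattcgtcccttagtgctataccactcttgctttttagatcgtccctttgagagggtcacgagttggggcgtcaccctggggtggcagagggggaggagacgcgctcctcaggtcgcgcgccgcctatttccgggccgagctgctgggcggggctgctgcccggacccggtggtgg
P2rx7, upstream start, chr5:122643677-122643976, plus strand: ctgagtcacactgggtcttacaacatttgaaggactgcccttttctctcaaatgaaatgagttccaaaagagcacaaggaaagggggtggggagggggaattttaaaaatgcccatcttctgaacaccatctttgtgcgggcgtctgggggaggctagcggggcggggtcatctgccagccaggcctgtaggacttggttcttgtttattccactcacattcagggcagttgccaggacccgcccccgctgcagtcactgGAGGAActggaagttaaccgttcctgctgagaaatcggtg
P2rx7, downstream start, chr5:122650133-122650432, plus strand: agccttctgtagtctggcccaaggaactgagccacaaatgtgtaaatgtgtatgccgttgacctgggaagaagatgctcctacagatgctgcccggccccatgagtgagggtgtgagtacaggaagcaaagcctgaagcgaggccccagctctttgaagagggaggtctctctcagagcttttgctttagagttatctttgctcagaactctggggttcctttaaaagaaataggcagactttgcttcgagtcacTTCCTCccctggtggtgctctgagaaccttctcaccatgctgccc
Entpd1, upstream start, chr19:40612116-40612415, plus strand: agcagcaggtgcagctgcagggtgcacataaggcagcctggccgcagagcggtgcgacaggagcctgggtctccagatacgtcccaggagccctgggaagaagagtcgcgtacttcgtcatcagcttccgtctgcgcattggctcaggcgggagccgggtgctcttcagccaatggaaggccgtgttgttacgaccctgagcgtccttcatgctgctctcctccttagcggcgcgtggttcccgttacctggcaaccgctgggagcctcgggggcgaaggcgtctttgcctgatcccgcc
Entpd1, downstream start, chr19:40659520-40659819, plus strand: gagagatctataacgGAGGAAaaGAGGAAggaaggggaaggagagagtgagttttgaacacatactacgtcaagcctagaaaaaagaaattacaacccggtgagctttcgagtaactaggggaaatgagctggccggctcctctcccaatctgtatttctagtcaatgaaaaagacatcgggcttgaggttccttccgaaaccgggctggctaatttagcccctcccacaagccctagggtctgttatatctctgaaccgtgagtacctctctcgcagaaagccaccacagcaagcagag
Adora3, chr3:105904171-105904470, plus strand: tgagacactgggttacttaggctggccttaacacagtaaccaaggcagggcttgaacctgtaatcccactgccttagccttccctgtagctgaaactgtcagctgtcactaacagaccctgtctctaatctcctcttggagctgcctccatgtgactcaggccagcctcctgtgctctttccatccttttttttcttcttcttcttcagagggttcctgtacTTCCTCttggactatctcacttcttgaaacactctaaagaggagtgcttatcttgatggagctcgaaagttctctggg
Adora1, upstream start, chr1:134235408-134235707, minus strand: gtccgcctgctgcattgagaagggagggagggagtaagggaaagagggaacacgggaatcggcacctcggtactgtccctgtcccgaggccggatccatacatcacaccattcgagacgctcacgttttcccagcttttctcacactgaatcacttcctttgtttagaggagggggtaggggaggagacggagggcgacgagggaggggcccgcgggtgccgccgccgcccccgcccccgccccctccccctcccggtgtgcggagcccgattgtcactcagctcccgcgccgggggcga

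GAGGAA was found on either strand in 4 of the 11 windows and in 28.3% of all 32851 windows of the same length. Those 4 windows belonged to 3 of the 8 genes, namely P2rx7, Entpd1 and Adora3. Both P2rx7 windows held 1 match and the downstream Entpd1 window held 2. The AP-1 motif TGANTCA, where N is any base, occurred once in the upstream P2rx7 window, the Adora3 window, the Entpd2 window and the upstream Adora1 window, against 7.8% of all windows. TATAAA (13.6% of all windows) and the STAT motif TTCNNNGAA (8.3% of all windows) were found in none of the 11 windows. The GC box GGGCGG was found in 6 of the 11 windows and in 35.7% of all windows. The Adora3 window had 1 CpG and a GC content of 48.3%, the P2rx4 window 18 CpG and 60.3%, and the median over all windows was 7 CpG and 52.7%. These matches describe letters in a window. The table gives 1 value per gene, so which of several starts gave the tags was not analysed here.

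In the tissue as a whole, 3439 genes (23.4% of those tested) were called higher and 1971 (13.4%) lower at 1 week. The split depended on the scaling: it was 2936 higher and 2588 lower with TMM, 2873 and 2721 with median-of-ratios scaling, and 2464 and 3211 with quantile normalization. Libraries held 8278853 to 13998942 reads assigned to genes, so 3 reads, about the upper 1-sided 95% limit for a count of 0, are worth 0.214 to 0.362 CPM. Markers of several cell types moved with the comparison. All 8 microglial markers, among them Tmem119, Cx3cr1, Siglech and Csf1r, were called higher, and their summed level was 1358 to 1935 CPM at 1 week and 412 to 435 CPM without delay. Of 7 markers of infiltrating and border macrophages, 4 were tested and all 4 were called higher (summed level 111 to 310 CPM at 1 week and 10.04 to 13.5 CPM without delay, most of it Lyz2 at 1 week), while Ccr2, a monocyte receptor, and Lyve1 stayed under 1 CPM in every library. All 7 astrocyte markers were called higher (3308 to 3881 CPM at 1 week and 1527 to 1758 CPM without delay). The microglial marker Sall1 and the macrophage marker Ms4a7 were below 1 CPM in every no-delay library and passed the filter only through their 1-week values, so those 2 calls were bound to be higher. None of the 5 T and B cell genes at hand passed the filter, with the T cell genes Cd3e and Cd3d under 1 CPM in every library. In bulk tissue, more cells of a type and more RNA per cell cannot be told apart, and the part of these shifts in the results below was not tested. The column names also carry a 3-base tag that differs between the groups, so whatever it marks and the time after the lesion cannot be told apart.

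The ATP-gated channels both rose. P2rx4, a channel found in microglia and neurons that responds to low ATP, stood at 31.2 CPM in the 1-week library tagged acagtg, at 35.03 in that tagged atcacg, at 29.2 in that tagged cgatgt and at 27.9 in that tagged tgacca. The no-delay libraries, in the same order of tags, had 18.8, 16.4, 18.02 and 15.7 CPM. Every 1-week value exceeded every no-delay value, with the 1-week library tagged atcacg the highest. The means were 30.8 CPM ± 3.13 at 1 week and 17.2 CPM ± 1.41 without delay (SD, n = 4 each), a log2 fold change of 0.80 (SE 0.10, 95% interval 0.59 to 1.01, limma adjusted p = 3.9e-05).

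P2rx7, which needs high ATP and is known for driving inflammasome activation and interleukin-1β release in myeloid cells, was at 12.1, 18.3, 14.3 and 12.7 CPM at 1 week and 5.84, 4.94, 5.64 and 3.75 CPM without delay, in the same order of tags. The lowest 1-week library held more than the highest no-delay library, and the 1-week library tagged atcacg was the highest. The means were 14.4 CPM ± 2.81 and 5.04 CPM ± 0.944 (1 week and no delay, SD, n = 4 each), and limma put the log2 fold change at 1.34 (SE 0.15, adjusted p = 2.9e-05). P2rx7 rose by more than P2rx4: the ratio of P2rx7 to P2rx4 in a library was 0.464 ± 0.0580 at 1 week and 0.291 ± 0.0355 without delay (SD, n = 4 each), with no overlap (exact 2-sided permutation test, p = 0.0286, the smallest that 4 against 4 libraries allow). Of 6 such ratios tested, 5 had this p, which is 0.034 after Benjamini-Hochberg adjustment over the 6, and P2ry13 to P2ry12 did not pass (0.167 ± 0.0225 at 1 week and 0.123 ± 0.0219 without delay, SD, n = 4 each; exact permutation p = 0.0857). The gene pairs of these ratios were chosen with earlier results of these data known, and the adjustment does not cover that choice. P2rx4 and P2rx7 are neighbours in the genome, and none of the 10 genes had the same reads as another gene in every library.

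Among the P2Y receptors, P2ry6 showed the highest log2 fold change of the 9 genes tested. P2ry6, the receptor for UDP that triggers phagocytosis in microglia, was at 14.4, 22.4, 13.8 and 13.2 CPM at 1 week, against 1.43, 2.83, 1.68 and 2.29 CPM without delay. The library tagged atcacg was the highest in each group. The means were 15.9 CPM ± 4.33 at 1 week and 2.06 CPM ± 0.629 without delay (SD, n = 4 each), and the log2 fold change by limma was 2.46 (SE 0.19, adjusted p = 1.0e-06). Over pooled reads, 777 at 1 week and 84 without delay, the ratio was 7.77 (95% counting interval 6.20 to 9.85). The 1-week library tagged atcacg was also the highest in summed microglial markers (1935 CPM) and in summed macrophage markers (310 CPM, where the remaining 1-week libraries had 111 to 170 CPM).

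P2ry1, an ADP receptor of astrocytes, neurons and platelets, was low, at 3.14, 3.25, 1.93 and 3.09 CPM at 1 week and 1.23, 1.37, 2.38 and 1.56 CPM without delay. These values rest on 26 to 44 reads per 1-week library and 12 to 24 per no-delay library, and the groups overlapped through the library tagged cgatgt, the lowest at 1 week and the highest without delay. The means were 2.85 CPM ± 0.619 and 1.64 CPM ± 0.515 (1 week and no delay, SD, n = 4 each), and P2ry1 was called higher by limma, with 0.55 as its log2 fold change (SE 0.18, adjusted p = 0.0297). An exact permutation test, 2-sided, gave p = 0.0571. The call was lost in 9 of 17 alternatives: without any single library of either group other than those tagged cgatgt (adjusted p from 0.0580 to 0.0831), with DESeq2 (adjusted p = 0.0665), with the 6-base tag as a block (adjusted p = 0.0629) and with quantile normalization (log2 fold change 0.16, adjusted p = 0.507). The range of adjusted p over all 17 was 0.0124 to 0.507. The ratio of P2ry6 to P2ry1 was 5.72 ± 1.51 at 1 week and 1.35 ± 0.570 without delay (SD, n = 4 each), with no overlap (exact permutation p = 0.0286).

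Of the ectonucleotidases, Entpd1 and Entpd2 rose and Nt5e was not called. Entpd1 (CD39), which removes phosphates from ATP and ADP and is carried by microglia and endothelium, was at 32.7, 37.8, 30.6 and 33.9 CPM at 1 week and 14.5, 12.1, 12.7 and 13.2 CPM without delay. Endothelial markers moved with it as well: 6 of 7 were called higher, against 23.4% of all genes tested. Their sum was 250 to 295 CPM at 1 week and 157 to 174 CPM without delay, and their part in the Entpd1 value was not tested. For Entpd1 the groups were set apart by more than the whole range within either group. The means were 33.7 CPM ± 3.01 and 13.1 CPM ± 1.01 (1 week and no delay, SD, n = 4 each), and the log2 fold change by limma was 1.30 (SE 0.09, adjusted p = 6.5e-07).

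Entpd2, an enzyme that prefers ATP and so leaves ADP, and that astrocytes express, was at 12.1, 18.3, 17.9 and 11.5 CPM at 1 week and 8.91, 7.96, 9.50 and 7.81 CPM without delay. The 1-week libraries fell into a higher pair (atcacg and cgatgt) and a lower pair (acagtg and tgacca), all above the no-delay libraries. The means were 14.9 CPM ± 3.65 and 8.55 CPM ± 0.802 (1 week and no delay, SD, n = 4 each), and the log2 fold change was 0.71 (SE 0.15, limma adjusted p = 0.0031). The ratio of Entpd1 to Entpd2 was 2.36 ± 0.573 at 1 week and 1.54 ± 0.157 without delay (SD, n = 4 each), with no overlap (exact permutation p = 0.0286).

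Nt5e (CD73), which turns AMP into adenosine, was at 2.17, 3.10, 2.93 and 2.69 CPM at 1 week and 2.05, 2.19, 3.07 and 1.67 CPM without delay, from 16 to 42 reads per library. The groups overlapped. The log2 fold change was 0.21 (95% interval -0.14 to 0.56, limma adjusted p = 0.339), and quantile normalization gave a log2 fold change of -0.19. The interval leaves room for a change of either sign at this depth. The level of Entpd1 relative to Nt5e was 12.6 ± 1.92 at 1 week and 6.15 ± 1.68 without delay (SD, n = 4 each), with no overlap (exact permutation p = 0.0286).

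The adenosine receptors did not move together. Adora1, the A1 receptor of neurons, had the highest level of the 10 genes in both groups, at 69.3, 72.4, 74.9 and 79.7 CPM at 1 week and 86.1, 70.2, 83.3 and 67.0 CPM without delay. The 1-week values lay inside the no-delay range. The means were 74.1 CPM ± 4.39 and 76.6 CPM ± 9.43 (1 week and no delay, SD, n = 4 each), and the log2 fold change was -0.04 (95% interval -0.23 to 0.15, limma adjusted p = 0.739). Summed markers of cortical neurons were 5322 to 5603 CPM at 1 week and 5914 to 6654 CPM without delay. Of the 9, 3 were called lower, against 13.4% of all genes tested.

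Adora3, the A3 receptor, which in mice is expressed by microglia and mast cells, was at 5.07, 3.03, 3.29 and 2.85 CPM at 1 week and 0.31, 0.82, 0.79 and 0.63 CPM without delay. The library tagged acagtg was the highest at 1 week and the lowest without delay, and the groups did not overlap. Its reads numbered 164 over the 1-week libraries and 26 over the no-delay libraries, a pooled ratio of 5.30 (95% counting interval 3.49 to 8.35). The log2 fold change was 1.46 (SE 0.18, limma adjusted p = 5.7e-05), and 2.36 by edgeR on the recovered reads, since the pseudocount shrinks changes of low genes. Adora3 passed the filter only through its 1-week values, so the gap between groups was fixed and this adjusted p does not count as a test. In the RefSeq annotation Adora3 overlaps Tmigd3, which is not analysed here, so tags of the pair may be joined in the Adora3 values. The ratio of Adora3 to Adora1 was 0.0487 ± 0.0167 at 1 week and 0.00854 ± 0.00346 without delay (SD, n = 4 each), given without a test because of the filter.

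Adora2a, an adenosine receptor abundant in striatal neurons that also carry the dopamine receptor Drd2 and found in some immune and vascular cells, was at 2.05, 0.96, 0.64 and 0.98 CPM at 1 week and 1.43, 0.09, 1.68 and 0.94 CPM without delay. It rested on 51 reads at 1 week and 41 without delay, did not pass the filter, and its groups overlapped (exact 2-sided permutation test, p = 0.8000). Without a filter its log2 fold change was 0.12 (95% interval -0.47 to 0.72, limma adjusted p = 0.767). The library with the lowest value, no delay tagged atcacg with 1 read, also had the lowest no-delay levels of Drd2 (0.46 CPM, against 1.67 to 4.30 CPM in the other no-delay libraries) and Gpr6 (0.37 CPM, against 1.25 to 2.36 CPM), which mark the same striatal neurons. The 1-week library tagged acagtg was the highest at 1 week in Adora2a, Drd2 (1.09 CPM) and Gpr6 (1.45 CPM). All 11 striatal markers were above 0 in every library, and their sum was 287 to 381 CPM at 1 week and 309 to 474 CPM without delay. Of the 11, 6 were called lower (limma) and 5 were not called, the lower ones including Drd2 (log2 fold change -1.17, adjusted p = 0.0249). The share called lower over all genes tested was 13.4%. The part of striatal tissue in the Adora2a values was not tested.

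**Figure D2:**
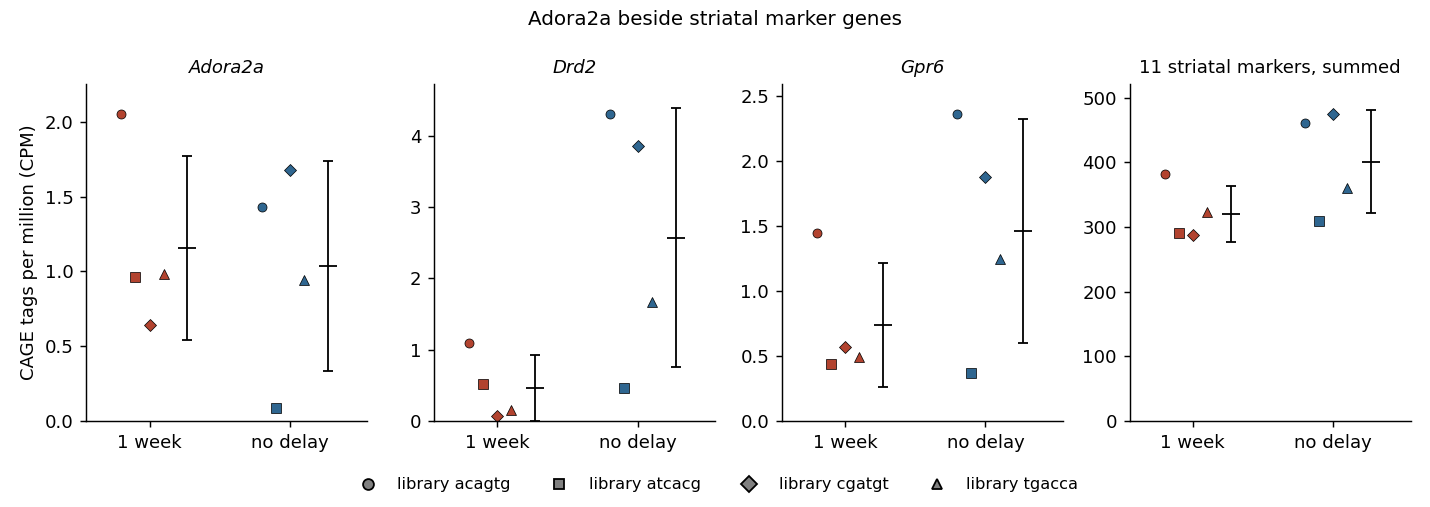
CPM of Adora2a, of the striatal neuron genes Drd2 and Gpr6, and of 11 striatal markers summed, in each library (marker shapes for the 6-base tags), 1 week on the left and no delay on the right, with mean ± SD of 4 libraries. The no-delay library tagged atcacg is the lowest no-delay library in all panels, and the 1-week library tagged acagtg the highest 1-week library.

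The order of the 10 genes by level differed between the groups. Since CAGE counts a tag per capped end, CPM was not divided by transcript length. At 1 week Adora1 was followed by Entpd1 and P2rx4, whose ranges overlapped, then by P2ry6, Entpd2 and P2rx7, each overlapping its neighbour, then by Adora3, P2ry1 and Nt5e, again overlapping, with Adora2a last. Without delay the order was Adora1, P2rx4, Entpd1, Entpd2, P2rx7 and Nt5e, with no overlap between neighbours, followed by P2ry6, P2ry1, Adora2a and Adora3, which overlapped their neighbours, P2ry6 also with Nt5e. P2ry6 was thus 4th at 1 week and 7th without delay.

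The genes known from microglia were then set against the 8 microglial markers, since those rose 3.78-fold in summed CPM (mean 1586 CPM at 1 week and 420 CPM without delay). Each share takes the gene's CPM from the whole tissue, where P2rx4 is also found in neurons and Entpd1 in endothelium. It is not a value per microglial cell, and the part of other cells was not tested. P2rx4 amounted to 1.95% ± 0.128 of the summed marker CPM at 1 week and to 4.11% ± 0.400 without delay (SD, n = 4 each). This log2 difference of -1.07 had no overlap between the groups (exact 2-sided permutation test, p = 0.0286). Entpd1 stood at 2.15% ± 0.251 at 1 week and 3.12% ± 0.258 without delay (SD, n = 4 each), a log2 difference of -0.54 (exact permutation p = 0.0286, and 0.0571 without the no-delay library tagged acagtg). For P2ry6 the share was higher at 1 week, at 0.994% ± 0.114 at 1 week and 0.490% ± 0.152 without delay (SD, n = 4 each). Its log2 difference was 1.06 (exact permutation p = 0.0286). Without any single 1-week library it was 0.99 to 1.11, and p was then 0.0571. Adjusted by Benjamini-Hochberg over the 11 comparisons with marker sums, the exact p of P2rx4, Entpd1 and P2ry6 was 0.105 each, so none of the 11 passed 0.05 after adjustment.

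P2rx7 and Adora3 overlapped between the groups on this scale, with log2 differences of -0.40 (exact permutation p = 0.1143) and 0.63. The Adora3 value is given without a test because of the filter, though it was counted among the 11 comparisons in the adjustment. The P2rx7 value passed 0.05 without the no-delay library tagged tgacca (log2 difference -0.55, exact permutation p = 0.0286).

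**Figure D3:**
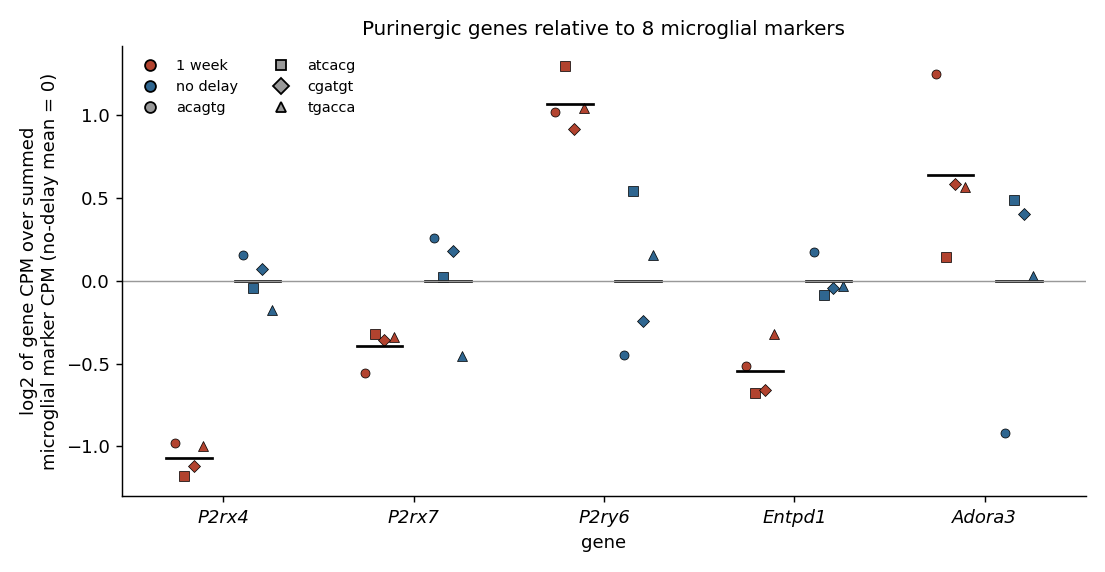
Log2 of each gene's CPM over the summed CPM of 8 microglial markers, per library, set to a no-delay mean of 0; 1 week is left of no delay for each gene, marker shapes give the 6-base tag and bars the mean of 4 libraries. P2rx4 and Entpd1 lie below and P2ry6 above all no-delay libraries at 1 week, while P2rx7 and Adora3 overlap.

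Other genes were set against markers of a cell type known to express them. Entpd2 was 0.403% ± 0.0807 of the summed astrocyte markers at 1 week and 0.520% ± 0.0323 without delay (SD, n = 4 each; log2 difference -0.39, exact permutation p = 0.0571), and the difference was -1.24 (exact permutation p = 0.0286) without Slc1a2, the marker with the most tags. Gfap, the intermediate filament of reactive astrocytes and 1 of the markers left, was at 1174 CPM ± 289 at 1 week and 31.4 CPM ± 5.02 without delay (SD, n = 4 each). P2ry1 over astrocyte markers gave a log2 difference of -0.34 (exact permutation p = 0.3429), and -1.20 without Slc1a2 (exact permutation p = 0.0286). Adora1 over cortical neuron markers gave 0.16 (exact permutation p = 0.1714). Nt5e gave -0.47 over oligodendrocyte precursor markers and -1.46 over fibroblast and meningeal markers (exact permutation p = 0.0571 each). Adora2a over striatal markers gave 0.96 (exact permutation p = 0.4286), and 0.11 without the no-delay library tagged atcacg. After adjustment over the 11 comparisons these values lay between 0.105 and 0.429, and 0.0286 is the smallest unadjusted p that any of them could reach.

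The wider pathway was read from a list of 37 further genes, of which 29 had a row and 24 passed the filter. Of the 24, 10 were higher, 3 were lower and 11 were not called, with a median log2 fold change of 0.17. The shares over all genes tested were 23.4% higher and 13.4% lower, and the count of lower genes was near that share. Among the other P2 receptors, 3 of the 6 tested rose. P2ry12, the ADP receptor of resting microglia that draws their processes to injury, was at 87.3 CPM ± 8.69 at 1 week and 39.8 CPM ± 5.20 without delay (SD, n = 4 each; log2 fold change 1.12, limma adjusted p = 4.3e-06), and P2ry13, a related ADP receptor, at 14.7 CPM ± 2.90 and 4.92 CPM ± 1.15 (1 week and no delay; log2 fold change 1.41, limma adjusted p = 5.2e-05). Gpr17, a receptor of committed oligodendrocyte precursors, rose by 1.68 on the log2 scale. The ratio of P2ry6 to P2ry12 was 0.181 ± 0.0352 at 1 week and 0.0532 ± 0.0196 without delay (SD, n = 4 each), with no overlap (exact permutation p = 0.0286).

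Of 9 further enzyme genes tested, 3 were higher, 1 was lower and 5 were not called, close to the shares over all genes (23.4% higher and 13.4% lower). Pnp, the phosphorylase that cleaves inosine and guanosine, was at 19.3 CPM ± 0.772 at 1 week and 8.13 CPM ± 0.689 without delay (SD, n = 4 each; log2 fold change 1.15, limma adjusted p = 2.2e-06). Its near copy Pnp2 was listed at 0.24 to 0.37 CPM at 1 week and 0.09 to 0.21 CPM without delay, and tags shared by the copies could be split between them. Enpp1, which splits ATP into AMP and pyrophosphate, rose by 0.83 (limma adjusted p = 0.00377, lost with quantile normalization at adjusted p = 0.0716), and Entpd5, an enzyme of the endoplasmic reticulum, by 0.42 on the log2 scale. Entpd4, an enzyme of intracellular membranes, fell by 0.39 on the log2 scale (61.3 CPM ± 7.28 at 1 week and 80.5 CPM ± 8.46 without delay, limma adjusted p = 0.00689); RefSeq lists a copy, Entpd4b, that is not analysed here. The 3 genes with the most tags among those not called were Entpd6 (log2 fold change -0.20), Entpd7 (0.05) and Adk, the adenosine kinase of astrocytes (0.18). Entpd6 was called lower in 5 of 18 alternatives (TMM, median-of-ratios and quantile scaling, edgeR and DESeq2), with adjusted p from 0.0187 to 0.186 over all 18.

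Of 4 nucleoside transporter genes tested, 2 were higher, 1 was lower and 1 was not called, and of 4 genes for ATP release, 1 was higher, 1 was lower and 2 were not called. The shares over all genes tested were 23.4% higher and 13.4% lower. Panx2, for ATP release and not called, was called lower in 5 of 18 alternatives, with adjusted p from 0.0105 to 0.255 over all 18. Those 5 were TMM, median-of-ratios and quantile scaling, DESeq2, and leaving out the 1-week library tagged tgacca. Adora2b, the low-affinity A2B receptor, was at 4.90 CPM ± 0.471 at 1 week and 3.15 CPM ± 0.486 without delay (SD, n = 4 each; log2 fold change 0.51, limma adjusted p = 0.00934, lost with quantile normalization at adjusted p = 0.476). The nucleoside transporter genes Slc29a3, which acts in lysosomes, and Slc29a1, at the cell surface, rose by 1.10 and 0.39 on the log2 scale, and Slc29a4 fell by 0.77. Gja1, the astrocyte connexin whose hemichannels can pass ATP, rose by 1.51 on the log2 scale. Lrrc8a, a subunit of volume-regulated anion channels, fell by 0.43 (limma adjusted p = 0.0313), a call lost in 7 of 18 alternatives: without any single library of either group other than those tagged tgacca, and with the 6-base tag as a block (adjusted p from 0.00104 to 0.0959 over all 18).

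**Figure D4:**
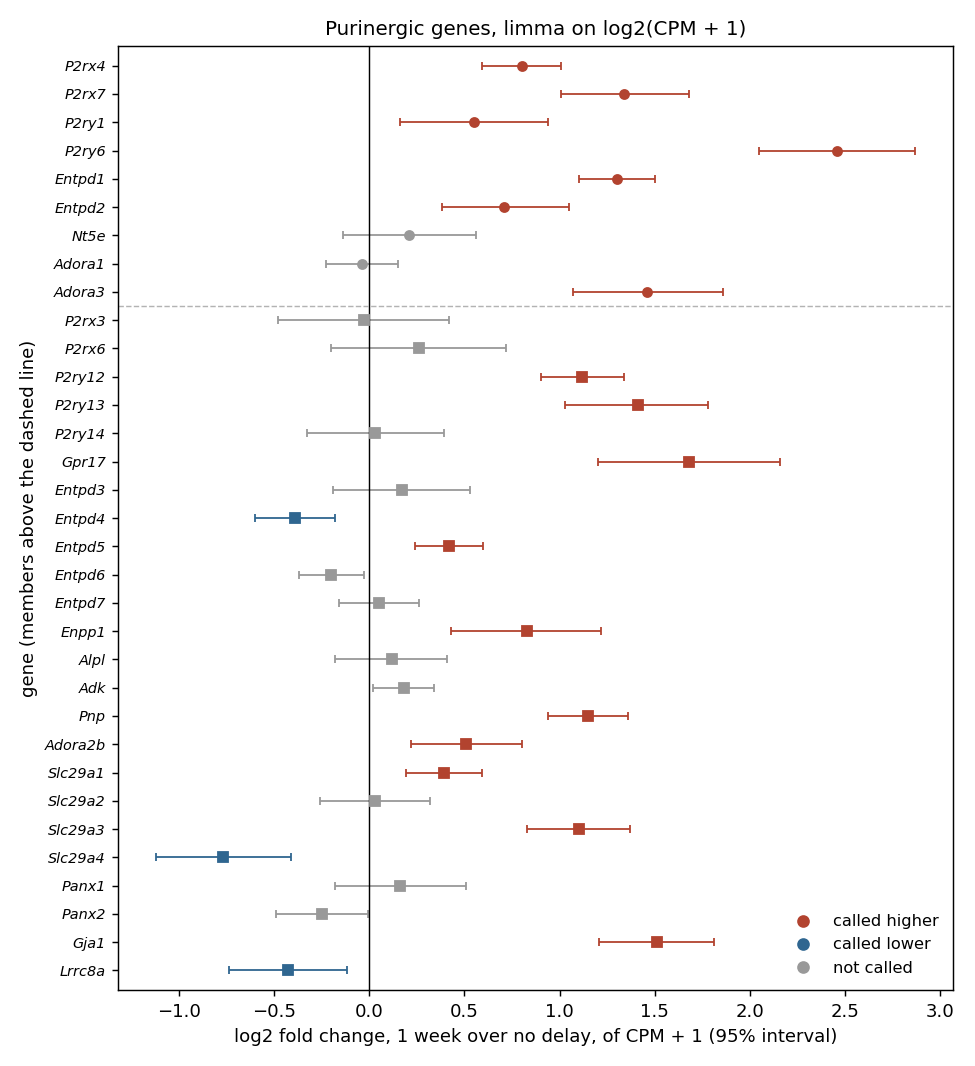
Log2 fold change of CPM + 1 (x axis, 1 week over no delay) with its 95% interval from limma for the 9 tested genes of the set (circles, above the dashed line) and 24 other purinergic genes (squares); red was called higher, blue lower and grey not called. P2ry6 has the highest value, 2.46, and Slc29a4 the lowest, -0.77.

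For each of the 6 genes with a mean of 5 CPM or more, the gene with the most similar profile over the 8 libraries was sought among 12321 others with such a mean, as the smallest root mean square difference between log2(CPM + 1) values centred on each gene's own mean. Since the groups differ widely, this measure mostly reflects the size of the group difference. It gave Gm2a for P2rx4 (0.061), C1qc for P2ry6 (0.114), Dhrs1 for P2rx7 (0.086), Scamp2 for Entpd1 (0.070), Rftn2 for Entpd2 (0.077) and Hira for Adora1 (0.043), where each value in brackets is the difference in log2 units. No gene lay within 0.1 of P2ry6, whereas 39 did so for P2rx4 and 279 for Adora1. This limit is stricter for a gene with larger changes. The root mean square of a gene's values around its own mean was 1.261 for P2ry6, 0.415 for P2rx4 and 0.121 for Adora1. These counts therefore do not set the P2ry6 profile apart. C1qc, a chain of complement C1q, was at 258 CPM ± 52.3 at 1 week and 44.2 CPM ± 4.82 without delay (SD, n = 4 each).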

How the data were processed

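The authors deposited 1 table of CPM values (CAGE tags as a share of each library's total) for 17644 gene symbols and 8 libraries. BWA 0.5.9 and build mm9 are named per the submitters' processing notes, and per the labels' protocols libraries were sequenced as single-end reads. How tags were assigned to genes, and whether strand was used, is not given in the sources used here. Columns show the group but no replicate number. Chi-square values per degree of freedom between libraries of a group had means of 8.36 to 15.95 and medians of 1.194 to 2.628 over genes. Counting noise alone would give lower means and lower medians. A typical gene thus also varied beyond counting noise, though by less than the means show. All 8 libraries were counted as separate samples. The labels do not tie each library to its own animal, so p-values measure the spread between these samples, which may be technical.

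Low CPM values were whole multiples of the value of 1 read (100% within 0.1 reads), so reads were recovered. Genes were tested on log2(CPM + 1) with limma 3.58.1 in R 4.3.3, its variance prior following mean expression, for the 14718 genes at 1 CPM or more in at least 4 libraries, 2-sided, Benjamini-Hochberg adjusted over all of them. Fold changes (1 week over no delay) on this scale understate changes of low genes. Means, SDs and ratios come from CPM. Counting intervals are exact, at 95%, and cover counting error only. Exact permutation tests were 2-sided and used all 70 arrangements of the libraries, or all 35 where 1 library was left out. Alternatives were other pseudocounts, filters and scalings, edgeR 4.0.16 and DESeq2 1.42.0 on the recovered reads, leaving out each library with the tested genes kept, and the 6-base tag as a block, added after seeing the data. Scripts were tested on simulated data.

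The genes, lists, motifs and tests were chosen with earlier results of these data known. Named from the wider pathway were all called genes, the 3 with the highest mean CPM that were not called, and Panx2. RefSeq promoter windows are on GRCm38.p6, not mm9, and are given only as sequence. Some marker genes are not reported here by name.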

Additional observations from a re-analysis of the deposited data

Results flagged for a closer look

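In 94 sets of 4 libraries of a group (the 10 genes, the tested pathway genes and the summed marker lists), 4 had a library that stood apart from the other 3, by Dixon's test at its 95% critical value; chance flags about 1 set in 20. P2ry6 at 1 week stood at 22.4 CPM in the library tagged atcacg, where the other 3 had 13.2 to 14.4 CPM. P2ry1 at 1 week stood at 1.93 CPM in the library tagged cgatgt, against 3.09 to 3.25 CPM in the others. Entpd5 at 1 week stood at 24.2 CPM in the library tagged tgacca, against 25.2 to 25.4 CPM in the others. Entpd4 without delay stood at 93.1 CPM in the library tagged cgatgt, against 74.8 to 77.5 CPM in the others.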

How the results depend on the processing

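No paired analysis was possible because the columns carry no replicate numbers, other than by the 6-base tags, which recur in both groups and are not said to pair samples. With the tag as a block, added after seeing the data, 3484 genes were called higher and 1986 lower, and of the genes named here P2ry1 (adjusted p = 0.0629) and Lrrc8a lost their calls. The calls of P2rx4, P2rx7, P2ry6, Entpd1, Entpd2 and Adora3 kept their direction and stayed past the threshold in all alternatives run for them (18 each, and 17 for Adora3, which is not tested at a filter of 5 CPM), with the highest adjusted p of the 6 at 0.0326 for Entpd2 with quantile normalization. Adora3 passed the filter only through its 1-week values, so wherever that filter was kept its direction was fixed and lends no support. Log2 fold changes ranged from 0.69 to 0.85 for P2rx4, from 1.55 to 2.88 for P2ry6 and from 0.60 to 2.38 for Adora3, the lowest with a pseudocount of 5. Adora1 and Nt5e were called in none of their alternatives, with log2 fold changes from -0.11 to 0.02 and from -0.19 to 0.32. From 5 to 7 genes of the set were called higher and 0 lower in each alternative. Over all genes, quantile normalization gave 3211 genes called lower. Leaving out 1 library gave 2841 to 3448 genes called higher and 1429 to 2142 called lower. The no-delay values of P2ry1, P2ry6, Nt5e, Adora2a and Adora3 rest on 1 to 31 reads per library, which limits their precision.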
